A study of Mus musculus with 3 samples.

Results

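Angptl8, Angptl4, G0s2, Pnpla2, Lpin1 and Lpin2 control the breakdown of stored and circulating triacylglycerol and its synthesis from phosphatidate. These 6 genes, of 32285 features counted, were taken by their listed symbols, and all 6 were found and passed the count minimum used below. They were followed in single hepatocytes, sequenced in droplets with a 3′ kit in which a unique molecular identifier (UMI) marks each captured transcript. Wild-type (WT) mice had been fed for 12 weeks on a 60% high fat diet with 0.25% hyodeoxycholic acid, a bile acid (HFD_HDCA), on the same 60% high fat diet alone (HFD), or on a normal diet (ND). Hepatocytes were freed by collagenase perfusion, and each diet had 1 library. With no replicates there is no p-value, the intervals cover counting error only, and diet cannot be told apart from library, mouse or hour of isolation. The sources used here do not state the number of mice behind a library, their sex and age, their fed state or the time of day. The genes were picked for how their levels differed between these libraries and lobule zones, so the levels, ratios and shares below are a description.

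Triacylglycerol in lipoproteins is cleaved in capillaries by lipoprotein lipase, which secreted angiopoietin-like proteins inhibit. ANGPTL8 is made by liver and fat after feeding, and ANGPTL4 is made mainly in fasting. Inside the cell, adipose triglyceride lipase, encoded by Pnpla2, takes the first fatty acid off a stored triacylglycerol, and G0S2 binds and inhibits it. Lipins remove the phosphate of phosphatidate to give the diacylglycerol from which triacylglycerol and phospholipids are built, and lipin 1 also acts in the nucleus with PPARα and PGC-1α on genes of fatty acid oxidation.

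The DNA just before the starts of Angptl8, G0s2 and Lpin1 is shown because these genes had at least 2-fold differences between HFD_HDCA and HFD, Angptl8 and G0s2 in one direction and Lpin1 in the other. The sequences run 5′ to 3′ on the strand of the gene, end at the base before its annotated start, and come from RefSeq on GRCm38.p6. They are chr9:21835260-21835509 on the plus strand for Angptl8, chr1:193273218-193273438 on the minus strand for G0s2 and chr12:16610967-16611216 on the minus strand for Lpin1. Capitals mark matches to the motifs searched.
Angptl8: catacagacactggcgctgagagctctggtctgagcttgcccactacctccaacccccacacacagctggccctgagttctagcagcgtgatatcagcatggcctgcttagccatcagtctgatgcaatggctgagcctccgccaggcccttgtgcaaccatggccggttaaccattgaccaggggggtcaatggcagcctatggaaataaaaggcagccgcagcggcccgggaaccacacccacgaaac
G0s2: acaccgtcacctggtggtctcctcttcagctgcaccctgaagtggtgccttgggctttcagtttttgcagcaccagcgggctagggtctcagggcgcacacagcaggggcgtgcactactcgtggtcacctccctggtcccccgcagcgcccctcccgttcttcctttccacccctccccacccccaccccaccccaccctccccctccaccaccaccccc
Lpin1: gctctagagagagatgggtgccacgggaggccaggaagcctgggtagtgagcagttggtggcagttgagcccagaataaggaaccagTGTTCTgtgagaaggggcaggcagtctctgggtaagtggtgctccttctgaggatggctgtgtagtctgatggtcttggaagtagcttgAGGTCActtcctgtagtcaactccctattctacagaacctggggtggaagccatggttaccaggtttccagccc

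Motifs were searched on both strands as exact letters, and some of them can overlap. They were the E-box CACGTG bound by clock and lipogenic factors, the D-box TTANGTAA bound by DBP and related factors, the nuclear receptor hexamer AGGTCA, the glucocorticoid receptor hexamer AGAACA, the cAMP response element TGACGTCA, the TATA box TATAAA and the CCAAT box. The Lpin1 stretch held AGAACA on the opposite strand, printed as TGTTCT, 163 to 158 bases before the start, and AGGTCA 74 to 69 bases before it. Among 32851 promoters of the same 250-base length, 16.1% held AGAACA and 14.02% held AGGTCA on either strand. The other shares were 6.02% for CACGTG, 2.06% for TTANGTAA, 1.55% for TGACGTCA, 12.4% for TATAAA and 33.8% for CCAAT. These letters were not in the windows of Angptl8, 250 bases long, or of G0s2, 221 bases long. Lpin1 has 8 annotated transcripts with 8 different starts, and 1 of them begins at the start used here.

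The genes lie apart in the genome (GRCm38, GENCODE M21). Angptl8 (ENSMUSG00000047822) lies at chr9:21835510-21837347 within Dock6, which runs on the opposite strand and had 54 UMIs in HFD_HDCA, 26 in HFD and 71 in ND. G0s2 (ENSMUSG00000009633) lies at chr1:193272161-193273217 and overlaps Lamb3 on the opposite strand, which had 16 UMIs in HFD_HDCA, 6 in HFD and 7 in ND. Both neighbours had far fewer UMIs than the gene they overlap. Angptl4 (ENSMUSG00000002289) is at chr17:33773750-33781830, Pnpla2 (ENSMUSG00000025509) at chr7:141455198-141460743 and Lpin1 (ENSMUSG00000020593) at chr12:16535669-16610966. Lpin2 (ENSMUSG00000024052), at chr17:71182560-71249817, shares its strand with the long noncoding RNA gene Gm26561, so reads of the overlap cannot be assigned with certainty.

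Barcodes were retained if they had 200 or more genes and no more than 50% mitochondrial counts, 3000 of 4873 in HFD_HDCA, 2898 of 6290 in HFD and 2776 of 5755 in ND. Their median depth was 1116.5 UMIs in HFD_HDCA, 868 in HFD and 944.5 in ND, and 1 to 5 retained barcode sequences were shared between any 2 libraries. Levels are UMIs of a gene per 1000000 nuclear-encoded UMIs (CPM) over all retained cells of a library. All 13 hepatocyte markers were detected in each library, and together they took between 93380 and 106259 CPM. The 13 endothelial markers summed to 126 CPM in HFD_HDCA, 87.8 in HFD and 477 in ND, and the 13 Kupffer cell markers to between 135 and 145 CPM. Clusters of the retained cells split largely by library: 1428 of the 1487 cells in the largest cluster came from HFD_HDCA, 1161 of 1185 in the next from HFD and 1159 of 1171 in the one after from ND, so comparisons set hepatocytes of different clusters against each other. Of 6 adipocyte markers, Lep and Plin1 were at 0 in all 3 libraries, and the list summed to between 5.36 and 7.25 CPM.

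Among the regulators of lipoprotein lipase, Angptl8 differed most. It stood at 98.7 CPM (95% interval 90.8 to 107) in HFD_HDCA, 24.6 CPM (19.9 to 30.2) in HFD and 644 CPM (620.4 to 669) in ND. ND was the highest library, HFD the lowest, and no 2 intervals overlapped. The level was 26.0-fold lower in HFD than in ND (log2 ratio -4.70, interval -5.02 to -4.41), and 2 of 7855 measured genes had a lower ratio. It was 3.99-fold higher in HFD_HDCA than in HFD (log2 ratio 1.996, interval 1.68 to 2.34). HFD_HDCA still lay 6.52-fold below ND (log2 ratio -2.71, interval -2.84 to -2.58).

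Angptl4, the fasting-induced inhibitor of the same enzyme, had a narrower range and another order. It stood at 85.4 CPM (78.1 to 93.3) in HFD_HDCA, 102 CPM (92.0 to 113) in HFD and 59.9 CPM (52.8 to 67.7) in ND. The HFD_HDCA and HFD intervals overlap, and both lie above that of ND. Set against ND, HFD had a log2 ratio of 0.77 (0.54 to 1.003), and HFD_HDCA set against HFD one of -0.26 (-0.45 to -0.06), which turned to 0.12 when cells were thinned to 500 UMIs.

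In the pair that governs intracellular lipolysis, the inhibitor differed and the lipase did so by less than 2-fold. G0s2 stood at 194 CPM (182 to 205) in HFD_HDCA, 56.5 CPM (49.1 to 64.7) in HFD and 242 CPM (227 to 257) in ND. HFD was the lowest library and HFD_HDCA lay nearer to ND, with intervals that did not overlap. The level was 4.27-fold lower in HFD than in ND (log2 ratio -2.10, interval -2.32 to -1.88) and 3.42-fold higher in HFD_HDCA than in HFD (log2 ratio 1.77, interval 1.56 to 1.996). Between HFD_HDCA and ND the log2 ratio was -0.32 (-0.44 to -0.20), and it ran from -0.71 to -0.13 over 9 processing alternatives.

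Pnpla2, the lipase that G0S2 inhibits, stood at 33.6 CPM (29.1 to 38.7) in HFD_HDCA, 36.7 CPM (30.8 to 43.4) in HFD and 44.0 CPM (37.9 to 50.7) in ND. The intervals of all these libraries overlap. HFD set against ND gave a log2 ratio of -0.26 (-0.59 to 0.06). HFD_HDCA gave -0.13 (-0.45 to 0.20) when set against HFD and -0.39 (-0.68 to -0.09) when set against ND. With 137 to 195 UMIs a library, differences much smaller than these bounds were not detectable.

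Both lipins were higher in each high fat library than in ND, and Lpin1 also lay past 2-fold between HFD_HDCA and HFD. Lpin1 stood at 486 CPM (468 to 504) in HFD_HDCA, 984 CPM (952 to 1016) in HFD and 43.5 CPM (37.5 to 50.2) in ND. HFD was the highest library and ND the lowest, with wide gaps between the intervals. The level was 22.6-fold higher in HFD than in ND (log2 ratio 4.50, interval 4.29 to 4.72), and 5 of 7855 measured genes had a higher ratio. In HFD_HDCA it was 2.03-fold lower than in HFD (log2 ratio -1.02, interval -1.09 to -0.95), just past 2-fold with an interval that spans it, and 11.1-fold higher than in ND (log2 ratio 3.48, interval 3.27 to 3.70). With hepatocyte-like clusters alone, the Lpin1 log2 ratios were larger, at 5.19 in HFD over ND and 4.17 in HFD_HDCA over ND. That setting leaves out 888 ND barcodes of unnamed clusters. In each of these clusters all 13 hepatocyte markers were found in at least 10% of cells. Lpin1 stood at 58.2 and 64.6 CPM over their cells of all libraries, of which 509 of 513 and 379 of 401 were from ND. The larger ratios are therefore not read as those of purer hepatocytes.

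Lpin2, a lipin abundant in liver, stood at 316 CPM (302 to 331) in HFD_HDCA, 305 CPM (287 to 323) in HFD and 62.9 CPM (55.6 to 70.9) in ND. The HFD_HDCA and HFD intervals overlap and both lie far above ND. The level was 4.84-fold higher in HFD than in ND (log2 ratio 2.27, interval 2.08 to 2.47) and 5.02-fold higher in HFD_HDCA than in ND (log2 ratio 2.33, interval 2.14 to 2.52). For HFD_HDCA against HFD the log2 ratio was 0.05 (-0.05 to 0.16). Lpin3 did not reach the count minimum.

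**Figure D1:**
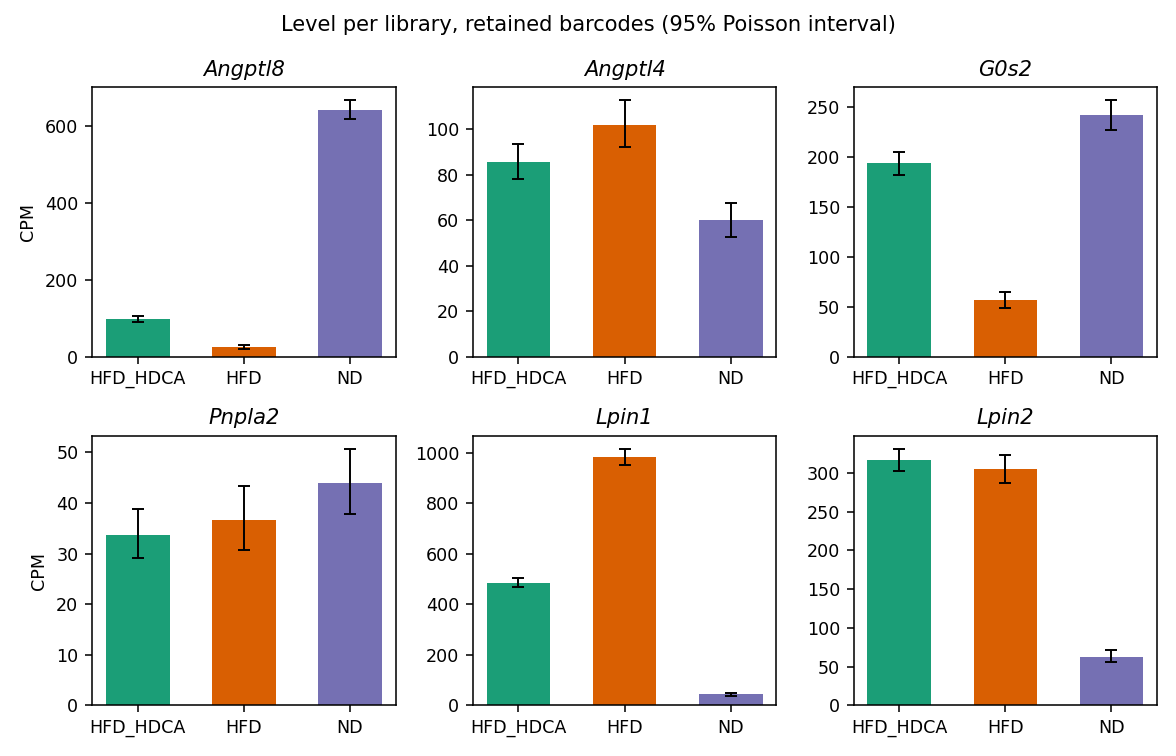
Level of each gene in CPM over all retained cells of the HFD_HDCA, HFD and ND libraries, with bars starting at 0 and error bars for the 95% Poisson interval. Angptl8 stands at 24.6 CPM in HFD against 644 in ND, while Lpin1 stands at 984 CPM in HFD against 43.5 in ND.

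Of the 6 genes, Lpin1 and Lpin2 were at least 2-fold higher in HFD than in ND, where 2.85% of the 7855 measured genes were, and Angptl8 and G0s2 were at least 2-fold lower, where 3.53% were. In HFD_HDCA against HFD, Angptl8 and G0s2 were at least 2-fold higher, against 1.63% of measured genes, and Lpin1 was at least 2-fold lower, against 1.48%. In HFD_HDCA against ND, Lpin1 and Lpin2 were at least 2-fold higher, against 2.62%, and Angptl8 was at least 2-fold lower, against 2.97%. Because the genes were picked on these differences, nothing is read from their share. Taken over the 7855 genes, the median log2 ratio was -0.06 in the first of these comparisons, 0.05 in the one of HFD_HDCA with HFD and -0.01 in the one with ND. The comparisons share libraries, so their ratios are not independent.

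**Figure D2:**
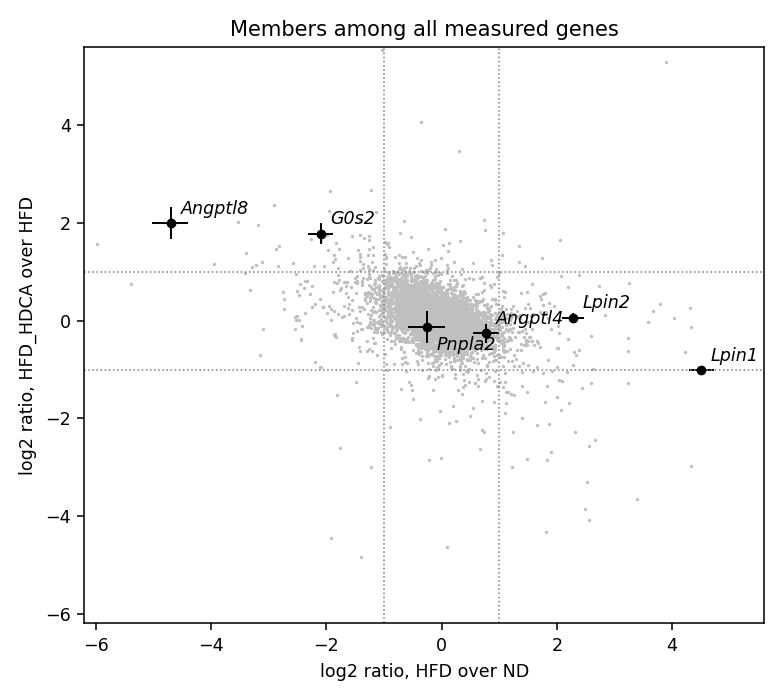
Log2 ratio of HFD over ND (horizontal) and of HFD_HDCA over HFD (vertical) for 7855 measured genes (small points) and the 6 named genes (large points with 95% counting intervals), dotted lines at 2-fold, leaving 6 genes outside the axes. The HFD library enters both ratios with opposite sign, which by itself tilts the cloud. Angptl8 lies at -4.70 and 1.996, G0s2 at -2.10 and 1.77, Lpin1 at 4.50 and -1.02 and Lpin2 at 2.27 and 0.05.

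The differences were also seen as shares of cells once depth was made equal. Each cell was thinned to 500 nuclear-encoded UMIs, which left out 179 shallower cells in HFD_HDCA, 925 in HFD and 339 in ND. A UMI of Angptl8 was then found in 5.21% (4.42 to 6.10%) of cells in HFD_HDCA, 1.22% (0.781 to 1.80%) in HFD and 29.1% (27.3 to 30.9%) in ND. Without thinning the shares were 15.4% in HFD_HDCA, 2.80% in HFD and 50.2% in ND. The order was the same by both measures, and it matches that of the CPM.

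For Lpin1 the thinned share was 20.6% (19.2 to 22.2%) in HFD_HDCA, 35.1% (33.0 to 37.3%) in HFD and 1.60% (1.14 to 2.18%) in ND, and unthinned it was 45.0%, 55.0% and 6.02% in the same order. G0s2 was found in 11.4% (10.2 to 12.6%) of thinned cells in HFD_HDCA, 3.04% (2.33 to 3.90%) in HFD and 12.1% (10.8 to 13.5%) in ND, and unthinned in 26.9%, 6.38% and 25.9%. The G0s2 intervals of HFD_HDCA and ND overlap after thinning, and no order is read between them. Lpin2 was found in 14.9% (13.6 to 16.3%) of thinned cells in HFD_HDCA, 13.9% (12.4 to 15.5%) in HFD and 3.86% (3.13 to 4.70%) in ND, and unthinned in 37.3%, 29.3% and 8.83%. Angptl4 was found in 4.54% of thinned cells in HFD_HDCA, 4.21% in HFD and 2.79% in ND. Unthinned, it was in 14.3%, 11.6% and 8.36%, so its shares in the high fat libraries go against the order of the CPM and are not ranked. Pnpla2 was found in 2.02% of thinned cells in HFD_HDCA, 1.62% in HFD and 2.13% in ND, with intervals that overlap, and unthinned in 6.10%, 4.31% and 6.23%.

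**Figure D3:**
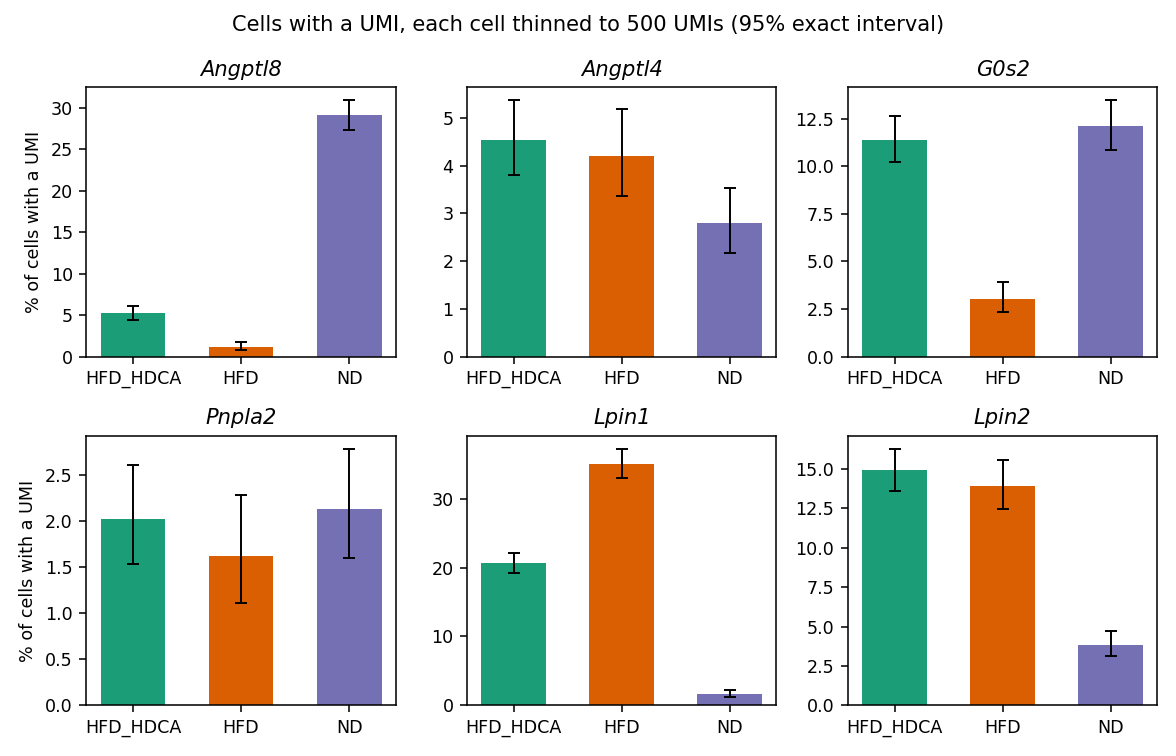
Share of cells with at least 1 UMI of each gene after thinning every cell to 500 nuclear-encoded UMIs, in the HFD_HDCA, HFD and ND libraries, with exact binomial 95% intervals. Angptl8 is found in 29.1% of ND cells and Lpin1 in 35.1% of HFD cells, while the Pnpla2 intervals overlap.

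Clusters named from endothelial and Kupffer cell markers served as the background for free RNA, although other cell types can also make lipins and Pnpla2. In ND, Angptl8 was found in 11.4% (5.59 to 19.9%) of 88 thinned endothelial-like cells with a median depth of 987 UMIs, against 30.03% (28.2 to 31.9%) of 2324 ND cells outside both clusters with a median of 944. Its level there was 254 CPM (164 to 375) in endothelial-like cells and 657 CPM in the others. In HFD, Angptl8 was found in 0 of 11 endothelial-like and 0 of 22 Kupffer-like cells, which allows shares of up to 27.3% and 13.6%. Its HFD share of 1.22% lies below both limits. In HFD_HDCA it was found in 0 of 32 endothelial-like cells, which allows up to 9.38%, and in 1 of 40 Kupffer-like cells, or 2.50% (0.0633 to 13.2%).

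Lpin1 in HFD was found in 0 of 11 thinned endothelial-like cells (median depth 632.5 UMIs) and in 1 of 22 Kupffer-like cells, or 4.55% (0.115 to 22.8%, median depth 625 UMIs), against 35.7% of the other HFD cells (median depth 884 UMIs). In HFD_HDCA Lpin1 was found in 5 of 32 endothelial-like cells, or 15.6% (5.28 to 32.8%, median depth 832 UMIs), and in 2 of 40 Kupffer-like cells, or 5.0% (0.611 to 16.9%, median depth 884 UMIs), against 20.9% of the others (median depth 1127 UMIs). In ND it was found in 0 of 88 endothelial-like cells, which allows up to 3.41%, above its 1.60% in all ND cells. The HFD_HDCA endothelial-like share thus overlaps that of the other cells, and the ND share does not exceed that limit. Without thinning, the Lpin1 level was 441 CPM (143 to 1029) in HFD endothelial-like cells and 246 CPM (106 to 484) in HFD Kupffer-like cells, on 5 and 8 UMIs, against 992 CPM in the others. In HFD, G0s2 was found in 1 of 11 endothelial-like cells, or 9.09% (0.230 to 41.3%), and in 0 of 22 Kupffer-like cells, which allows up to 13.6%, so its 3.04% of all HFD cells cannot be told from background. Lpin2 in ND was found in 4 of 88 endothelial-like cells, or 4.55% (1.25 to 11.2%), so its ND share of 3.86% cannot be told from background. In HFD, Lpin2 was found in 0 of 11 endothelial-like cells, which allows up to 27.3%, and in 4 of 22 Kupffer-like cells, or 18.2% (5.19 to 40.3%), an interval that holds the 13.9% of all HFD cells. In HFD_HDCA it was found in 2 of 32 endothelial-like cells, or 6.25% (0.766 to 20.8%), and in 2 of 40 Kupffer-like cells, against 15.2% of the others. The Lpin2 shares of the high fat libraries are therefore not shown to lie above background. Over the 3 libraries, Pnpla2 was found in 3 of 131 endothelial-like cells (2.29%) and in 2 of 87 Kupffer-like cells (2.30%). Its shares cannot be told from background on so few cells, which may also make it themselves. Angptl4 was found in 0 of 131 endothelial-like cells, which allows up to 2.29%, and in 1 of 87 Kupffer-like cells. The median depth of the endothelial-like cells was 894 UMIs, that of the Kupffer-like cells 763 and that of the other cells 1002.

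Without both clusters Angptl8 stood at 99.8 CPM in HFD_HDCA, 24.9 in HFD and 657 in ND. Lpin1 stood at 490.5 CPM in HFD_HDCA, 992 in HFD and 44.1 in ND, and G0s2 at 196 CPM in HFD_HDCA, 56.6 in HFD and 247 in ND. The differences were thus as large without the endothelial-like cells, whose markers were highest in ND, and the Kupffer-like cells.

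The counts of single cells show how the transcripts were spread. At least 3 UMIs of Angptl8 were held by 20 cells in HFD_HDCA, 2 in HFD and 325 in ND, and the highest cell held 7 in HFD_HDCA, 4 in HFD and 16 in ND. For Lpin1, 372 cells held at least 3 UMIs in HFD_HDCA and 511 in HFD, with highest values of 10 and 13, against 1 cell and a highest value of 3 in ND. Angptl8 and G0s2 UMIs fell together in 25 thinned cells in HFD_HDCA, where the product of their shares gives 16.7, and in 91 in ND, where it gives 85.8. Angptl8 and Lpin1 fell together in 30 thinned cells in HFD_HDCA and 10 in HFD, where the products give 30.3 and 8.43. In sparse counts these numbers carry no finding.

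Hepatocytes differ along the lobule from the portal vein to the central vein, and oxidative work and gluconeogenesis lie mainly on the portal side. Cells of each library were ordered by 10 pericentral and 12 periportal landmark genes and cut into 3 groups of equal size. The periportal group was deeper in each library, with a median of 2762.5 UMIs in HFD_HDCA, 1921 in HFD and 2566 in ND, against 1176, 933 and 816 in the pericentral group. Of 128 endothelial-like and Kupffer-like cells in ND, 82 lay in its pericentral group. Without these cells the same number of pairs of gene and library, 2, passed 2-fold between the outer zones, and the ND log2 ratios given below became -0.10 for Angptl8, 0.86 for G0s2 and -1.45 for Lpin1. For Angptl8, Lpin1, G0s2 and Lpin2, shares at equal depth are given beside the zone values.

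Angptl8 was higher on the portal side in both high fat libraries. In HFD_HDCA it stood at 64.2 CPM in pericentral, 102 in midlobular and 121 in periportal cells, and in HFD at 17.1, 15.8 and 34.3 CPM. In ND it stood at 546, 837 and 624 CPM, highest in midlobular cells. The pericentral over periportal log2 ratio was -0.91 (-1.22 to -0.60) in HFD_HDCA, -0.99 (-1.78 to -0.28) in HFD and -0.19 (-0.33 to -0.05) in ND. At equal depth Angptl8 was found in 4.07% of pericentral and 5.83% of periportal cells in HFD_HDCA and in 0.996% and 1.54% in HFD. The intervals overlap in both libraries, so the portal gradient is not shown by the shares. In ND it was found in 25.5% of pericentral, 33.4% of midlobular and 28.6% of periportal cells.

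Lpin1 was highest in periportal cells of each library. It stood at 361, 405 and 602 CPM from pericentral to periportal cells in HFD_HDCA, at 792, 983 and 1131 CPM in HFD, and at 20.4, 29.8 and 58.5 CPM in ND. The pericentral over periportal log2 ratio was -0.74 (-0.87 to -0.61) in HFD_HDCA, -0.51 (-0.62 to -0.40) in HFD and -1.49 (-2.24 to -0.86) in ND. At equal depth, Lpin1 was found in 19.3% of pericentral and 25.3% of periportal cells in HFD_HDCA. The shares were 31.3% and 39.3% in HFD, and 0.755% and 2.71% in ND. The intervals of these outer zones do not overlap within any library. The midlobular shares were 17.2% in HFD_HDCA, 33.9% in HFD and 1.19% in ND. In HFD_HDCA the midlobular share thus lay below the pericentral one, with intervals that overlap.

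G0s2 was lowest in periportal cells of each library. It stood at 233, 235 and 150.4 CPM from pericentral to periportal cells in HFD_HDCA, at 82.4, 65.9 and 32.6 CPM in HFD, and at 317, 309 and 186 CPM in ND. The pericentral over periportal log2 ratio was 0.63 (0.43 to 0.83) in HFD_HDCA, 1.33 (0.86 to 1.84) in HFD and 0.77 (0.56 to 0.98) in ND. At equal depth the G0s2 shares were 13.2% of pericentral and 9.33% of periportal cells in HFD_HDCA, and 3.84% and 2.05% in HFD. In ND they were 12.2% and 9.27%. The intervals of these outer zones overlap in each library. The midlobular shares were 11.5% in HFD_HDCA, 3.48% in HFD and 15.3% in ND, the highest zone there. G0s2 levels were also lowest in the deepest cells of each library, and the periportal group was the deepest. The part of depth in the zone levels was not tested.

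Between the outer zones, Lpin2 had log2 ratios of 0.27 in HFD_HDCA, 0.27 in HFD and 0.28 in ND, the last with an interval across 0. In HFD and ND it was highest in midlobular cells, at 379 and 86.9 CPM, with intervals that overlap the pericentral ones. Its pericentral and periportal shares at equal depth were 16.8% and 13.5% in HFD_HDCA and 14.2% and 12.4% in HFD. In ND they were 3.65% and 3.39%. The intervals overlap in each library, so no gradient is shown by the shares. Angptl4 had log2 ratios of 0.14 in HFD_HDCA, -0.13 in HFD and -0.09 in ND, and Pnpla2 had 0.01, -0.20 and 0.24, each with an interval across 0. Of the 18 pairs of gene and library, 2 were past 2-fold between the outer zones. They were G0s2 in HFD, higher in pericentral cells as were 4.48% of measured genes, and Lpin1 in ND, higher in periportal cells as were 1.85%. Where 0 of the 6 genes passed, the background was 3.62% higher in pericentral and 2.44% higher in periportal cells in HFD_HDCA, 3.34% higher in periportal cells in HFD and 6.8% higher in pericentral cells in ND. The zone pattern was part of what the genes were picked on, so nothing is read from that count.

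**Figure D4:**
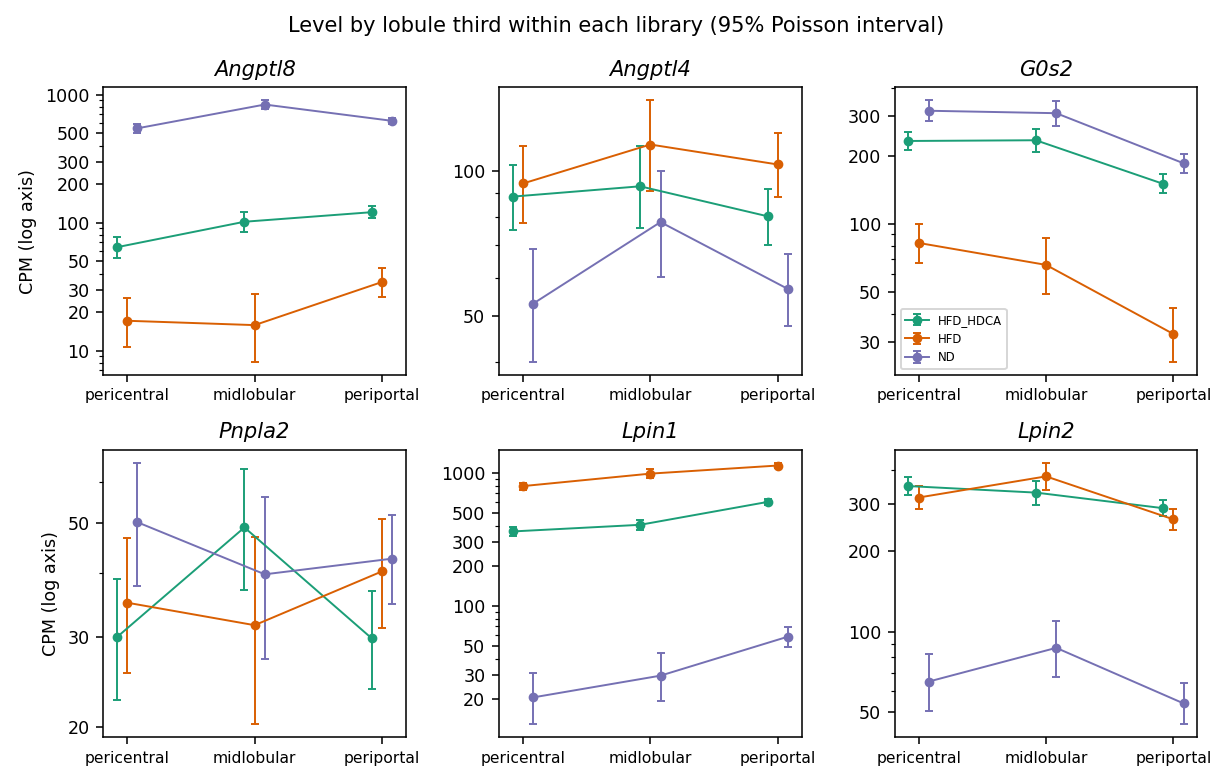
Level of each gene in CPM (log axes, a scale of its own in each panel) in pericentral, midlobular and periportal cells of the HFD_HDCA, HFD and ND libraries, with 95% Poisson intervals. Lpin1 is highest in periportal cells of each library, at 602, 1131 and 58.5 CPM, and G0s2 lowest there, at 150.4, 32.6 and 186 CPM.

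The differences between diets were present between zones of the same name. Zones were cut within each library, so a zone of the same name need not be the same place in the lobule. Cyp2e1, a pericentral landmark, stood at 4798 CPM in HFD midlobular cells and at 4054 CPM in ND pericentral cells. Cyp2f2, a periportal landmark, stood at 797 CPM in HFD_HDCA periportal cells and at 1309 CPM in ND midlobular cells. Angptl8 had log2 ratios for HFD against ND of -4.96 in pericentral, -5.67 in midlobular and -4.17 in periportal cells, on 12 to 58 UMIs in HFD. For HFD_HDCA against HFD its log2 ratios were 1.88, 2.63 and 1.80 in the same order. Lpin1 had log2 ratios for HFD against ND of 5.24, 5.01 and 4.27 from pericentral to periportal cells. For HFD_HDCA against HFD they were -1.13, -1.28 and -0.91, past 2-fold in the first 2 zones and not in periportal cells. G0s2 had log2 ratios for HFD_HDCA against HFD of 1.49, 1.82 and 2.20. The intervals of the pericentral and periportal values, 1.19 to 1.82 and 1.80 to 2.64, overlap.

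The genes with the nearest pattern to Angptl8, G0s2 and Lpin1 were taken over the 9 values of 3 zones in 3 libraries, by Euclidean distance of centred log2 CPM after adding 10 CPM, among 2975 genes with at least 50 CPM in a library. Nearest to Lpin1 were Rgs16 at a distance of 1.67, Mfsd2a at 2.30, Alas1 at 2.37, Coq10b at 2.73 and Usp2 at 2.96. Rgs16 encodes a regulator of G protein signalling, Mfsd2a a transporter of lysophosphatidylcholine, and Alas1 the first enzyme of haem synthesis. Rgs16 stood at 206 CPM in HFD_HDCA, 320.5 in HFD and 17.1 in ND, close in shape to Lpin1. For HFD_HDCA against HFD, where Lpin1 had a log2 ratio of -1.02, Rgs16 had -0.64, Alas1 -0.63 and Coq10b -0.31. Mfsd2a and Usp2 had the opposite sign, at 0.34 and 0.26. Nearest to G0s2 were Sgk1, a kinase gene induced by glucocorticoids, at 1.26, Gstm1 at 1.45, Cyp4a14, a fatty acid hydroxylase and PPARα target, at 1.51, Tubb5 at 1.65 and Efna1 at 1.71. Sgk1 stood at 76.3 CPM in HFD_HDCA, 27.6 in HFD and 94.98 in ND.

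For Angptl8 the distances were longer. The nearest genes were Gsta2 at 2.72, Gm29966 at 2.84, Tnfaip2 at 2.92, Tubb2a at 3.05 and Shfl at 3.28. Gsta2, a glutathione transferase, stood at 13.5 CPM in HFD_HDCA, 22.0 in HFD and 195 in ND. Its log2 ratio for HFD_HDCA against HFD was -0.71, where that of Angptl8 was 1.996. Counts of Gsta2 and Gstm1 are uncertain because of near-identical copies.

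Each pathway was also followed in wider gene lists, some of which include the 6 genes. The shares of all 7855 measured genes past 2-fold stand beside the counts in each list. They were 2.85% higher and 3.53% lower in HFD against ND, and 1.63% and 1.48% in HFD_HDCA against HFD. For HFD_HDCA against ND they were 2.62% and 2.97%. Among 15 genes of lipoprotein lipase control, all measured, 1 passed 2-fold upwards and 2 downwards in HFD relative to ND. Angptl8 was 1 of these 2, and among the 13 genes outside the 6 followed here, 1 was higher and 1 lower. The median log2 ratio of the 15 was 0.10. In HFD_HDCA against HFD, Angptl8 was past 2-fold higher and 0 genes were lower, with a median of 0.10. Lipg, endothelial lipase, stood at 80.6 CPM in HFD_HDCA, 59.4 in HFD and 18.0 in ND. Gpihbp1, which anchors lipoprotein lipase to capillary endothelium, had a log2 ratio of -2.50 for HFD against ND, and its level outside the endothelial-like and Kupffer-like clusters was 0.271 CPM in HFD and 0.241 in ND. Lpl itself stood at 7.77 CPM in HFD_HDCA, 10.4 in HFD and 14.97 in ND. Outside both clusters it stood at 0.699, 0.271 and 10.8 CPM in the same order. Its log2 ratio for HFD against ND there was -4.75 (-10.7 to -2.77) in place of -0.51. The levels of the high fat libraries rest on very few UMIs, so no size is read from that ratio.

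Of 24 genes of triacylglycerol hydrolysis and droplet control, 18 were measured. In HFD relative to ND, 1 passed 2-fold upwards and 1, G0s2, downwards, with a median log2 ratio of -0.28. In HFD_HDCA against HFD the counts were again 1 and 1, the higher gene being G0s2, with a median of 0.18. Among the 16 measured genes other than G0s2 and Pnpla2, 1 was higher and 0 lower in the first comparison. In the second, 0 were higher and 1 was lower. Plin5, a droplet coat protein that binds the lipase, stood at 17.3 CPM in HFD_HDCA, 44.2 in HFD and 21.1 in ND. Its log2 ratio was 1.07 in HFD over ND and -1.35 in HFD_HDCA over HFD, opposite in sign to G0s2 in both. Fitm1, a factor of droplet formation, stood at 87.5 CPM in HFD_HDCA, 56.5 in HFD and 48.0 in ND, and Plin3, another coat protein, at 26.7, 19.0 and 33.5 CPM.

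Of 18 genes of phosphatidate and glycerolipid synthesis, 13 were measured. In HFD against ND, 2 were at least 2-fold higher, both lipins, and 1 was lower, with a median log2 ratio of 0.09. The lower gene was Plpp1, a lipid phosphate phosphatase, at -2.52, and outside the endothelial-like and Kupffer-like clusters its log2 ratio was -0.72 with an interval from -3.46 to 1.40. In HFD_HDCA against HFD, 0 were higher and Lpin1 was lower, with a median of 0.19. Gpam, which starts glycerolipid synthesis at the mitochondrion, stood at 350 CPM in HFD_HDCA, 204 in HFD and 169 in ND, at least 2-fold higher in HFD_HDCA than in ND.

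Genes that respond to feeding and insulin did not share 1 direction. Of 15, all measured, 1 lay 2-fold or more above and 2 lay 2-fold or more below ND in HFD (median log2 ratio -0.06), and 2 were higher and 0 lower in HFD_HDCA than in HFD (median 0.44). Scd1, which desaturates fatty acids, stood at 2412 CPM in HFD_HDCA, 3177 in HFD and 9332 in ND, while Thrsp, a lipogenic nuclear protein, stood at 774 CPM in HFD_HDCA, 870 in HFD and 235 in ND. The 2 genes higher in HFD_HDCA than in HFD were Acacb, an acetyl-CoA carboxylase, at 32.6 against 9.64 CPM, and Me1, malic enzyme, at 303 against 101 CPM.

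Genes that respond to fasting and glucocorticoids and genes of the clock had the highest medians of the 6 lists in HFD against ND. Of 19 fasting and glucocorticoid genes, 17 were measured, and 8 were 2-fold or more higher and 0 lower in HFD than in ND (median log2 ratio 0.97, against -0.06 over all measured genes). Fkbp5, a chaperone induced by glucocorticoids, stood at 31.8 CPM in HFD_HDCA, 73.4 in HFD and 17.8 in ND, and it was the 1 gene of the list past 2-fold lower in HFD_HDCA than in HFD. Igfbp1, induced in fasting, stood at 344 CPM in HFD_HDCA, 654 in HFD and 273 in ND. Of 17 clock genes, 14 were measured, and 7 were higher and 1 lower in HFD than in ND (median 1.01). Over all measured genes, 2.85% were higher and 3.53% lower in that comparison. The same counts, 7 and 1, held for HFD_HDCA against ND, and 0 genes passed 2-fold in either direction in HFD_HDCA against HFD. Dbp, a clock output, stood at 102 CPM in HFD_HDCA, 71.5 in HFD and 12.4 in ND, and Ciart, a clock repressor, at 27.8, 30.5 and 1.40 CPM. The part of the hour of isolation and of fed state in the Angptl8, G0s2 and lipin values was not tested.

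The barcodes set aside for over 50% mitochondrial counts give a second reading of the same libraries on fewer UMIs. In them Angptl8 stood at 167 CPM (130.4 to 211) in HFD_HDCA, 42.5 CPM (25.9 to 65.6) in HFD and 1087 CPM (1003 to 1177) in ND, the same order as in retained cells. Lpin1 stood at 395 CPM (338 to 459) in HFD_HDCA, 1015 CPM (926 to 1110.1) in HFD and 58.2 CPM (40.04 to 81.7) in ND. G0s2 stood at 179 CPM in HFD_HDCA, 61.6 in HFD and 249 in ND, and Lpin2 at 390.3 CPM in HFD_HDCA, 469 in HFD and 100.5 in ND. HFD_HDCA against HFD gave log2 ratios of 1.95 for Angptl8, 1.52 for G0s2, -1.36 for Lpin1 and -0.26 for Lpin2. Pnpla2, on 15 to 31 UMIs a library, stood at 37.6 CPM (21.5 to 61.1) in HFD_HDCA, 65.8 CPM (44.7 to 93.4) in HFD and 26.4 CPM (14.8 to 43.6) in ND, another order than in retained cells.

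**Figure D5:**
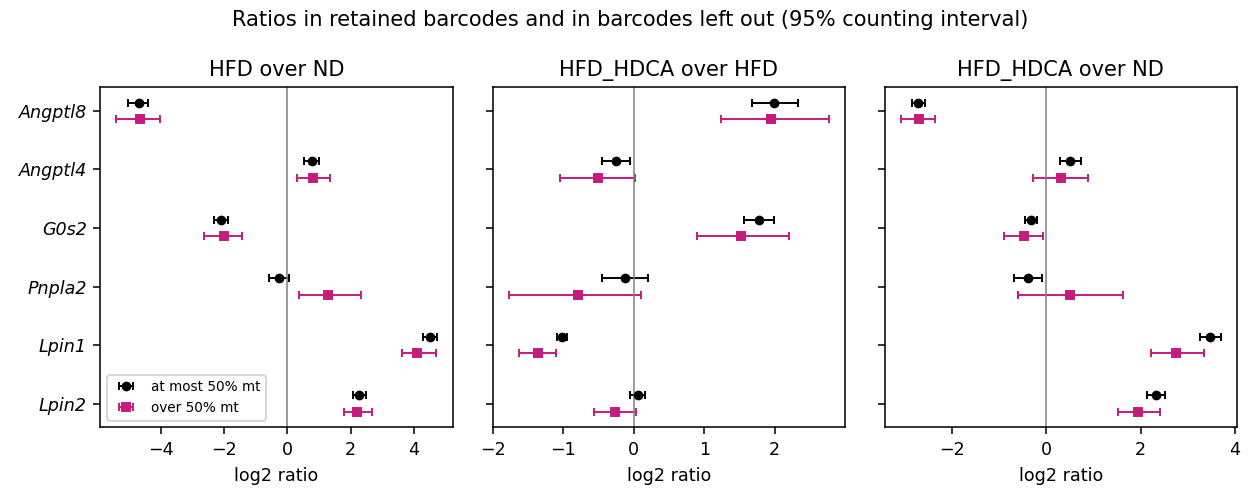
Log2 ratio of each comparison for the 6 genes in the retained cells and in the barcodes set aside for over 50% mitochondrial counts, with 95% counting intervals. The values of Angptl8, G0s2, Lpin1 and Lpin2 for HFD against ND lie close together in both sets, at -4.70 and -4.64, -2.10 and -1.99, 4.50 and 4.10, and 2.27 and 2.21, while those of Pnpla2 are -0.26 and 1.29.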

How the data were processed

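The deposited files hold raw UMI counts for each gene and barcode, made with Cell Ranger 5.0.0 (per the file headers) on build mm10 per the submitters' processing notes. The sources used here do not state aligner settings or how barcodes were chosen. Barcodes were retained with 200 or more genes and no more than 50% mitochondrial counts, and doublets were not removed. Counts were summed per library and divided by nuclear-encoded totals of 5795200 in HFD_HDCA, 3734740 in HFD and 4274662 in ND. Log2 ratios were taken after adding 0.5 to each count. Their 95% intervals are exact conditional binomial, those of CPM exact Poisson and those of shares exact binomial (Clopper-Pearson). All cover counting error only. Genes whose counts summed to 100 or more over the libraries, 7855 in all, were measured, and a 2-fold difference was the size rule. A share of 0 was read as a limit of 3 cells. Retained cells were clustered (scanpy 1.11.5, leidenalg 0.10.2, 2000 variable genes, 30 components, 15 neighbours, resolution 1) to name endothelial-like and Kupffer-like cells from at least 3 markers among the 10 leading genes. Clusters holding 888 ND barcodes stayed unnamed and were kept. Python 3.11.15, numpy 2.4.6 and scipy 1.17.1 were used, and the ratio was tested on simulated data. The members and gene lists were chosen with earlier results of these data known. Besides the members, up to 4 genes of each list with the largest absolute log2 ratio in a comparison and the 5 nearest genes could be named. Lpin3 falls outside that rule and was chosen after its values were seen. Promoters matched 5 of the 6 members.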

Additional observations from a re-analysis of the deposited data

Results flagged for a closer look

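The barcodes with over 50% mitochondrial counts are outside the retained cells on which the comparisons rest. They number 1863 in HFD_HDCA, 3354 in HFD and 2977 in ND, and hold 425281, 470972 and 567368 nuclear-encoded UMIs. Each value here is a log2 ratio in these barcodes whose interval lay above 0 relative to ND. Angptl4 was at 0.81 for HFD against ND, close to its 0.77 in retained cells. Lpin1 was at 4.10 for HFD against ND and at 2.75 for HFD_HDCA against ND. Lpin2 was at 2.21 for HFD against ND and at 1.95 for HFD_HDCA against ND.

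Pnpla2 was at 1.29 (0.38 to 2.31) for HFD against ND, on 31 UMIs in HFD and 15 in ND, where the retained cells gave -0.26 (-0.59 to 0.06). The intervals of the 2 sets of barcodes do not overlap. The difference between them was not tested, and its cause was not tested.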

How the results depend on the processing

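Over 9 alternatives, 1 of them (leaving out the endothelial-like and Kupffer-like clusters) chosen after seeing the data, the log2 ratio of Angptl8 ran from -5.13 to -4.50 in HFD against ND. In HFD_HDCA against HFD it ran from 1.85 to 2.33. That of Lpin1 ran from 4.39 to 5.19 for HFD against ND, G0s2 from -2.50 to -2.03 and Lpin2 from 1.93 to 2.34. Lpin1 in HFD_HDCA against HFD ran from -1.18 to -0.97 and was past 2-fold in 7 of 9, so 0 members were lower with mitochondrial counts in the total and 0 with at least 500 genes per cell. With hepatocyte-like clusters only, Lpin1 was at 4.17 in HFD_HDCA against ND, where it ran from 3.41 to 4.17. Between HFD_HDCA and HFD, Angptl4 turned to 0.12 thinned to 500 UMIs, and the signs of Pnpla2 and Lpin2 each held in 7 of 9. In HFD_HDCA against ND, Pnpla2 ran from -0.53 to -0.03 and G0s2 from -0.71 to -0.13. Genes past 2-fold depended on the count minimum. With no count minimum (16064 genes) 1378 were higher and 3048 lower in HFD over ND, 1376 and 1419 for HFD_HDCA against HFD, and 1767 and 2542 for HFD_HDCA against ND. With a count minimum of 20 (10833 genes) they were 382 and 990, 531 and 298, and 392 and 747, and with 500 (3406 genes) 131 and 53, 24 and 45, and 117 and 66. Thinned to 500 UMIs (4233 genes), 134 were lower for HFD against ND, 73 higher and 60 lower for HFD_HDCA against HFD, and 123 lower for HFD_HDCA against ND. With each cell weighted equally 197 were higher for HFD_HDCA against HFD. With only the outermost 20% of cells on either side as zones, 4 of 18 pairs were past 2-fold between zones, against 2. No share of all measured genes is given for this setting, so nothing is read from the rise. Angptl8 in ND between zones ran from -0.85 to -0.00296 over 4 zone settings. No paired analysis was possible because each diet has 1 library, and leaving out a replicate was not possible for the same reason. Depth limits Pnpla2, with 137 to 195 UMIs in each library, and Angptl8 in HFD, with 92.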

Other observations

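Levels also varied with the depth of a cell within a library. In the lowest, middle and highest of 3 equal depth groups, G0s2 stood at 307, 255 and 161 CPM in HFD_HDCA, at 83.9, 71.0 and 47.9 CPM in HFD, and at 315, 330 and 207 CPM in ND. Angptl8 stood at 134, 106 and 91.7 CPM in HFD_HDCA, at 17.8, 24.5 and 25.7 CPM in HFD, and at 903, 809 and 559 CPM in ND. Lpin1 stood at 439, 406 and 514 CPM in HFD_HDCA, at 1122, 956 and 971 CPM in HFD, and at 38.4, 27.0 and 48.6 CPM in ND. The order of the libraries was the same in each depth group for Angptl8 and Lpin1. For G0s2, too, HFD was the lowest library in each.

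Over 3 equal groups by mitochondrial share, Lpin1 stood at 362, 438 and 586 CPM in HFD_HDCA, at 849, 1063 and 1048 CPM in HFD, and at 24.98, 44.0 and 56.3 CPM in ND, from the lowest to the highest share. G0s2 stood at 256, 189 and 166 CPM in HFD_HDCA, at 68.4, 50.97 and 48.2 CPM in HFD, and at 311, 215 and 225 CPM in ND.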
